A study of Homo sapiens with 4 samples.

Results

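A set of 10 genes of the machinery that carries a cell out of G1 were followed through a time course of estrogen: the D-type cyclins CCND1 and CCND3, the E-type cyclins CCNE1 and CCNE2, the kinases CDK2, CDK4 and CDK6, the kinase inhibitors CDKN1A and CDKN1B, and the retinoblastoma gene RB1. They were chosen by symbol, and each symbol had 1 row in both gene tables, so that 10 of 33540 features in Ishikawa and 10 of 33538 in T-47D made up the set. Single-cell RNA-seq (scRNA-seq) had been run on 2 human cancer cell lines, Ishikawa, an endometrial adenocarcinoma line, and T-47D, a breast carcinoma line. Both had been kept for days in hormone-depleted medium and then given 10 nM 17β-estradiol (E2) for 2, 4 or 8 h, with vehicle-treated cells as 0 h. The Ishikawa gene table also held rows for GFP and tdTomato reporters. The time points of a line were tagged with MULTI-seq barcodes, lipid-anchored oligonucleotides that mark each cell with its culture of origin, and mixed into 1 library. No replicate cultures are labelled. Each line and time point was therefore taken as 1 culture, and nothing could be tested against replicates.

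In G1, mitogens and steroid hormones raise the D-type cyclins, which bind CDK4 or CDK6 and begin to phosphorylate the retinoblastoma protein. Phosphorylation frees E2F transcription factors, which turn on the E-type cyclins and the DNA replication genes, and cyclin E with CDK2 completes the step into S phase. The CIP/KIP proteins p21 (CDKN1A) and p27 (CDKN1B) bind these complexes and restrain CDK2. In breast and endometrial cells CCND1 is a classical estrogen-responsive gene, and much of the control of the other genes lies in protein turnover and phosphorylation, which RNA counts do not see.

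Levels are given as CPM, the unique molecular identifiers (UMIs, each the tag of 1 captured transcript) of a gene per 1000000 UMIs of a pool, where a pool is the sum of all kept cells of 1 line at 1 time point. Because 1 tag was counted at the 3′ end of each molecule, levels were not divided by transcript length. Log2 changes are on the log2(CPM + 1) scale against the 0 h pool of the same line, genes averaging at least 10 CPM over the 4 pools of a line were compared, and a change of at least 1.5-fold on this scale (0.58 in log2) was called. Intervals in brackets are exact 95% intervals that cover counting error only and not the variation between cultures. Those of CPM and of ratios treat each UMI as independent. They therefore also leave out variation between cells and are too narrow for genes that vary from cell to cell. UMIs are not corrected for differences in capture between cells.

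The pools held 776, 1480, 892 and 1465 Ishikawa cells and 1525, 1207, 1341 and 553 T-47D cells at 0, 2, 4 and 8 h, with 12927799 to 33175309 UMIs a pool and a median of 19122 to 22576 UMIs a cell. The smallest pool was T-47D at 8 h. The libraries shared 80 barcodes, 5 of them among kept cells. The lines matched their labels by markers: 5 of 6 endometrial epithelial genes reached 10 CPM in Ishikawa and 0 of 6 in T-47D, where 4 were at 0 in every pool, whereas 6 of 6 breast luminal genes did so in T-47D and 2 of 6 in Ishikawa. Of 8 stromal, endothelial and immune markers only COL1A1 reached 10 CPM, at a mean of 23.4 CPM in Ishikawa, and the summed level of the 8 was between 23.9 and 33.3 CPM in Ishikawa and between 6.51 and 7.54 CPM in T-47D. All 4 epithelial markers passed in both lines. At 8 h the ends of the marker lists were, in log2 change, XBP1 (1.04) and SPDEF (-0.18) among luminal and KRT8 (0.72) and EPCAM (-0.11) among epithelial genes in T-47D. In Ishikawa they were MSX1 (0.35) and PAX8 (-0.39) among endometrial, CDH1 (0.17) and KRT8 (-0.29) among epithelial and KRT19 (-0.03) and XBP1 (-0.05) among luminal genes, beside COL1A1 at -0.52. GFP took 4.67%, 3.17%, 3.95% and 4.10% of Ishikawa UMIs at 0, 2, 4 and 8 h, and the results for CCND1 are therefore also given for cells with under 1% GFP.

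Promoter windows of 300 bases, from 250 before to 50 after an annotated start, were read from RefSeq (GRCh38.p14) for 7 of the 10 genes. CCND1, CCNE2 and CDK2 had no window there. The windows of an E-type cyclin, a kinase and an inhibitor are shown because the 3 genes differ in how their levels followed the cell cycle, and capitals mark the SP box GGGCGG or its complement CCGCCC. The first is CCNE1 at chr19:29811741-29812040 on the plus strand, the second CDK4 at chr12:57752261-57752560 on the minus strand, and the last CDKN1B at chr12:12717118-12717417 on the plus strand.
CCNE1: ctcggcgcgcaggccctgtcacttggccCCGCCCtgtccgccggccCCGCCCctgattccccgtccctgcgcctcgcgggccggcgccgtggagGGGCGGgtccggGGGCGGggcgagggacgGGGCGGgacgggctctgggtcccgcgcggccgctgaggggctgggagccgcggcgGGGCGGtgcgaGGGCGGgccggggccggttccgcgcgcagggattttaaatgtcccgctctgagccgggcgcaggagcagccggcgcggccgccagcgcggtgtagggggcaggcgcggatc
CDK4: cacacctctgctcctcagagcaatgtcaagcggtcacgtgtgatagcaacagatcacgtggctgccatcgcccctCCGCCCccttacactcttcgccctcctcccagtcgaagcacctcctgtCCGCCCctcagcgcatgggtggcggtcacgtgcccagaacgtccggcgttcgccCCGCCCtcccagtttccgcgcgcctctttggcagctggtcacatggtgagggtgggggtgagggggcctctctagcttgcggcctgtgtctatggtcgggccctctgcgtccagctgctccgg
CDKN1B: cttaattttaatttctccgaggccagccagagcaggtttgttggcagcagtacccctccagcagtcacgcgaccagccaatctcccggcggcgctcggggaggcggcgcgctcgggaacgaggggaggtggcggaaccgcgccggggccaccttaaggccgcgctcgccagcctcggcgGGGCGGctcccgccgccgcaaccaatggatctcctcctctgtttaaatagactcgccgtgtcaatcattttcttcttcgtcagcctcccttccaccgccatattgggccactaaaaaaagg
The CCNE1 window held 7 SP boxes, the CDK4 window 3 and the CDKN1B window 1. On both strands and with overlapping matches counted, an SP box stood in a window of 6 of the 7 genes, against 48.3% of all 27305 genes with a window. The exception was RB1, whose only window lay at chr13:48476200-48476499, inside the gene. Of the cell cycle lists described further on, 18 of 23 E2F target genes and 9 of 13 G2 and mitosis genes with a window also held an SP box. The box was thus not particular to the set. E2F letters (TTTCGCGC, TTTGGCGC, TTTCCCGC or TTTGCCGC) were in none of the 7 and in 3.99% of all genes, whereas 13 of 23 E2F target genes with a window held them. Full palindromic estrogen response element letters (GGTCANNNTGACC) were in none of the 7 and in 0.0732% of all genes. The E-box CACGTG was found in CDK4, 3 times, and in CDK6, once, and in 8.77% of all genes. These are matches of letters in short windows and say nothing of whether a factor binds.

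CCND1 (ENSG00000110092, chr11:69641156-69654474, GRCh38.p14), which encodes cyclin D1, was the most abundant of the 10 genes in Ishikawa and second to CDK4 in T-47D at 0 h. In Ishikawa it stood at 472 CPM at 0 h, 597 CPM at 2 h, 519 CPM at 4 h and 610 CPM at 8 h. In T-47D it stood at 102, 158, 126 and 143 CPM at the same times. In both lines every E2 pool was above the 0 h pool, the 4 h pool was the lowest of the 3 E2 pools, and no counting intervals of the 0 h and E2 pools overlapped.

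Against 0 h the CCND1 level in T-47D was 1.55 times as high at 2 h [1.48 to 1.62], a log2 change of 0.63 and the only member past 1.5-fold at that time. Its ratio was 1.23 at 4 h [1.17 to 1.29] and 1.40 at 8 h [1.32 to 1.48], both short of the threshold. In Ishikawa the ratios were 1.27 [1.23 to 1.30], 1.10 [1.07 to 1.14] and 1.29 [1.26 to 1.33], none past it. From 2 to 4 h the level came to 0.870 times its 2 h value in Ishikawa [0.849 to 0.892] and 0.793 times in T-47D [0.758 to 0.828], and from 4 to 8 h to 1.17 [1.15 to 1.20] and 1.14 [1.08 to 1.21] times the 4 h value. The course up, down and up again thus exceeded counting error in both lines, but with 1 culture at each time the variation between cultures is not known.

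The CCND1 call at 2 h in T-47D sat near the threshold. In cells that lacked any UMI of the division genes TOP2A and MKI67 its log2 change was 0.55, and in cells low on both cell cycle lists described further on 0.54. Both values fall just under the 1.5-fold line. In Ishikawa cells with under 1% GFP the CCND1 log2 changes were 0.20, 0.09 and 0.32 at 2, 4 and 8 h, against 0.34, 0.14 and 0.37 over all kept cells, so the order of the 4 pools did not depend on the cells with more GFP.

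**Figure D1:**
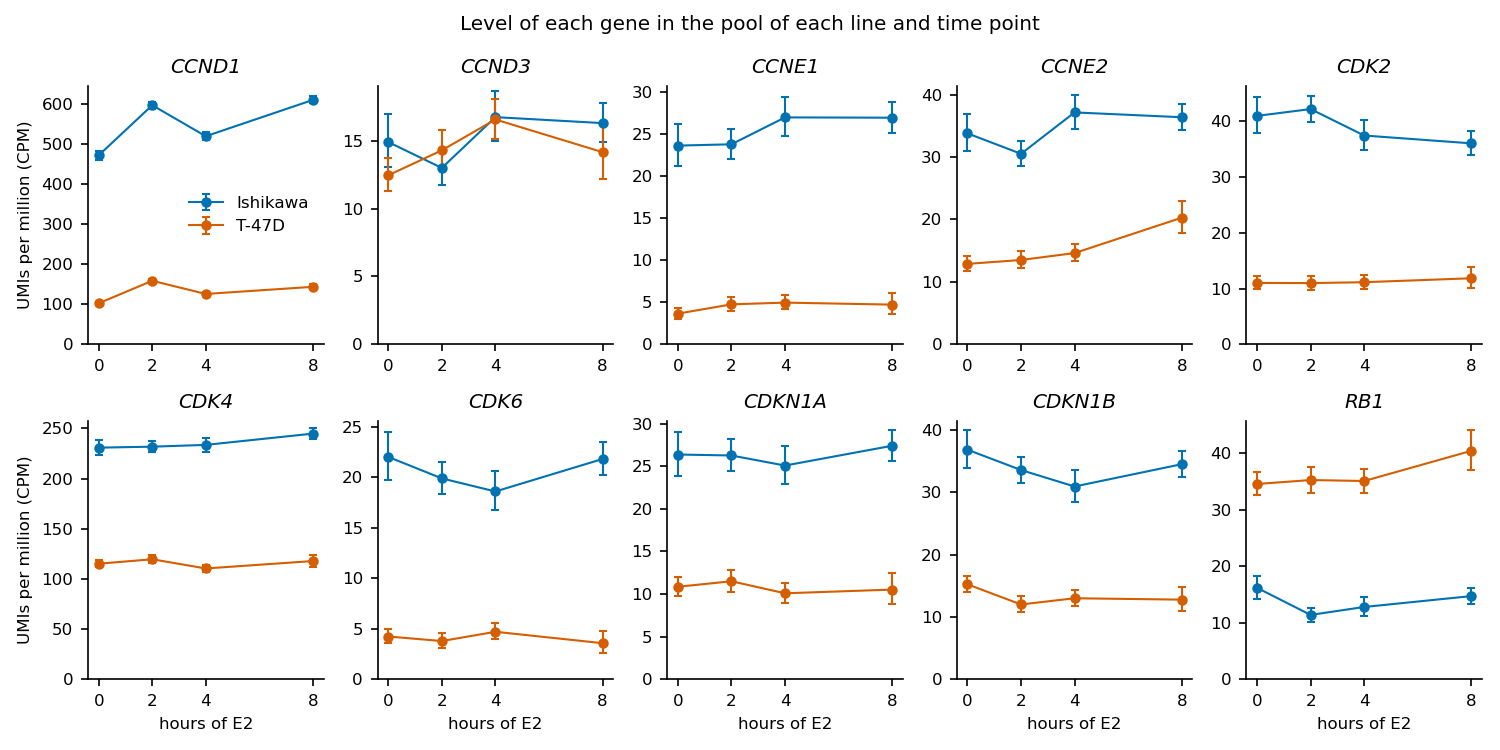
Level of each of the 10 genes in CPM (vertical axis, from 0, a scale for each panel) against hours of E2, for Ishikawa (blue) and T-47D (orange). Points are pools of 1 culture and bars are exact 95% Poisson intervals. CCND1 has a first high point at 2 h and a dip at 4 h in both lines, CCNE2 in T-47D is highest at 8 h with 20.3 CPM, and RB1 is the 1 gene whose T-47D level lies above that of Ishikawa at all times.

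The number of CCND1 molecules per cell moved with the pool level. To compare cells at equal depth, each cell was thinned at random to 12539 UMIs (Ishikawa) or 14495 (T-47D), leaving out shallower cells (57 to 175 per Ishikawa pool and 34 to 194 per T-47D pool). No cell type in these libraries should lack the 10 genes, so no share of cells could serve as a background for free RNA. In Ishikawa the share of thinned cells with a CCND1 UMI was 91.0%, 93.8%, 94.3% and 94.8% at 0, 2, 4 and 8 h, where the unthinned shares were 93.6%, 96.8%, 96.6% and 96.3%. In T-47D the thinned share was 68.0% at 0 h [65.4 to 70.5], 79.9% at 2 h [77.4 to 82.3], 74.2% at 4 h [71.6 to 76.6] and 75.7% at 8 h [71.8 to 79.4], and unthinned 75.7%, 86.2%, 81.4% and 84.3%. The median cell held 4, 6, 5 and 6 CCND1 UMIs in Ishikawa and 1, 2, 1 and 2 in T-47D. Cells with 3 or more CCND1 UMIs made up 65.5%, 76.8%, 74.7% and 79.2% of Ishikawa cells and 23.1%, 38.8%, 28.6% and 34.5% of T-47D cells. The T-47D pool of 2 h and the Ishikawa pool of 8 h thus had the highest share of cells with 3 or more CCND1 UMIs in their line, as they had the highest pool level.

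**Figure D2:**
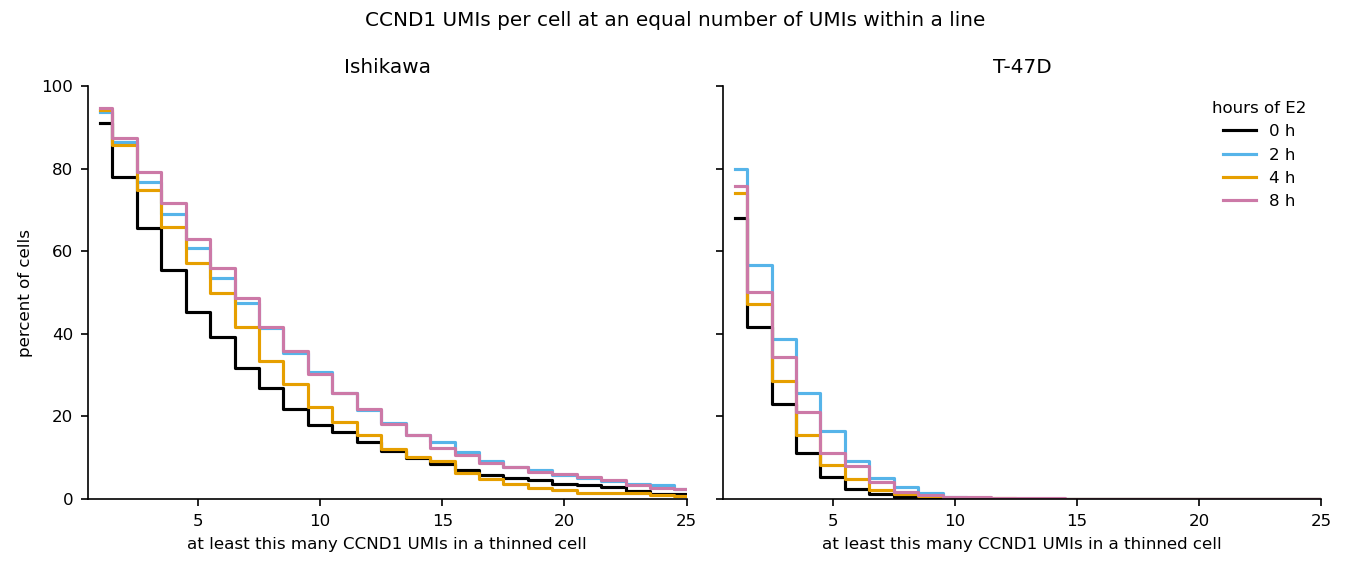
Percent of thinned cells (vertical axis) with at least a given number of CCND1 UMIs (horizontal axis), 1 line for each time of E2. In both lines the 0 h curve lies below all 3 E2 curves from 1 to 10 UMIs, and in T-47D the 2 h curve is the highest from 1 to 9 UMIs and lies under the 8 h curve at 10.

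The Fano factor is the variance over the mean of UMIs per thinned cell, for which pure counting gives 1. In Ishikawa CCND1 had the highest of the 10 genes, at 6.12, 5.60, 4.33 and 5.24 at 0, 2, 4 and 8 h. CCND1 also had the most UMIs per cell there. The Fano factor tends to grow with the mean, so this ranking is not one of relative spread. The CCND1 values in T-47D were lower, at 1.71, 1.96, 1.84 and 2.05. In Ishikawa the cell at the 10th percentile had 1 CCND1 UMI in each pool and the cell at the 90th 13, 16, 14 and 16. The 5% of cells with most CCND1 held 20.8% of its UMIs at 0 h and 16.2% to 17.4% in the E2 pools of that line. At 0 h the like share was 13.3% for CDK4 and 44.9% for CDK6, and only CDK4 was below CCND1. This share also depends on how many cells have any UMI of a gene, so it does not rank the genes by spread.

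CCND3, encoding cyclin D3, was a minor member of its family. Its levels were 14.9, 13.0, 16.7 and 16.3 CPM in Ishikawa and 12.4, 14.3, 16.6 and 14.2 CPM in T-47D. The T-47D value at 4 h was 1.33 times that at 0 h [1.16 to 1.52], a log2 change of 0.38 under the threshold, and the Ishikawa intervals against 0 h all held 1. CCND1 made up 94.2% to 96.0% of the UMIs of the 3 D-type cyclins in Ishikawa and 88.4% to 91.7% in T-47D. CCND2, the third D-type cyclin, had no UMI in any T-47D pool, which allows it at most 0.0968% of the D-type UMIs at 0 h, and 8.69, 12.1, 15.4 and 16.6 CPM in Ishikawa, where it rose past 1.5-fold at 4 h (log2 change 0.76) and at 8 h (0.86).

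The E-type cyclins, which activate CDK2 at the end of G1, differed in both level and course between the lines. CCNE1 stood at 23.7, 23.8, 27.0 and 27.0 CPM in Ishikawa, and its 8 h ratio was 1.14 [1.01 to 1.29]. In T-47D it stood at 3.65, 4.75, 4.96 and 4.72 CPM, from 61 to 147 UMIs a pool, and was under the 10 CPM limit, so no call was made. Its counting intervals there lay above 1 at 2 h (ratio 1.30 [1.01 to 1.69]) and at 4 h (1.36 [1.06 to 1.74]) and held 1 at 8 h.

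CCNE2 (ENSG00000175305) stood at 33.8, 30.5, 37.1 and 36.4 CPM in Ishikawa and its intervals against 0 h all held 1. In T-47D it stood at 12.9 CPM at 0 h, 13.5 CPM at 2 h, 14.6 CPM at 4 h and 20.3 CPM at 8 h. The 8 h pool was set apart from the other 3, whose intervals overlapped. Its ratio to 0 h was 1.57 [1.34 to 1.84], a log2 change of 0.62, and CCNE2 was the only member past 1.5-fold at 8 h. The call was lost in cells that lacked TOP2A and MKI67 UMIs, where the log2 change was 0.34, and with a pseudocount of 5 CPM, where it was 0.50. The share of thinned T-47D cells with a CCNE2 UMI was 10.4%, 10.7%, 12.7% and 16.8%, and unthinned 12.8%, 12.9%, 15.9% and 19.7%. The UMIs were concentrated in few cells: the 5% of cells with most held 71.9% of them at 0 h and 54.2% at 8 h. That share also depends on how many cells had any CCNE2 UMI, so it does not compare spread between the times. The Fano factor was 2.61, 2.53, 1.87 and 2.27. CCNE2 supplied 74.0% to 81.1% of E-type UMIs in T-47D and 56.2% to 58.8% in Ishikawa.

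Among the kinases, CDK4, the main partner of D-type cyclins, was abundant and level. It stood at 231, 232, 234 and 245 CPM in Ishikawa and 115, 120, 110 and 118 CPM in T-47D, and its largest ratio to 0 h was 1.06 [1.02 to 1.10], in Ishikawa at 8 h. CDK6, the other cyclin D kinase, stood at 22.0, 19.9, 18.6 and 21.8 CPM in Ishikawa, where the 4 h ratio was 0.844 [0.726 to 0.983]. In T-47D it had 3.56 to 4.69 CPM and was not compared. CDK4 made up 91.3% to 92.6% of the UMIs of the pair in Ishikawa and 95.9% to 97.1% in T-47D. CDK2, the partner of cyclins E and A, stood at 41.0, 42.2, 37.4 and 36.0 CPM in Ishikawa, a ratio at 8 h of 0.880 [0.797 to 0.972], and between 11.0 and 11.8 CPM in T-47D, where every interval held 1.

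The counts of CDK4 per cell were closer to even sampling than those of CCND1. Its Fano factor was 1.18 to 1.37 in Ishikawa, at a mean of 2.82 to 2.99 UMIs a thinned cell. In T-47D, at 0 h, CDK4 had a mean of 1.69 UMIs and a Fano factor of 1.11, where CCND1 had a mean of 1.54 UMIs and a Fano factor of 1.71. CDK6 in Ishikawa, at 0.216 to 0.290 UMIs a cell, had Fano factors of 1.84, 1.58, 1.22 and 1.66.

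The inhibitors did not pass 1.5-fold in either line. CDKN1A, encoding p21, stood at 26.4, 26.3, 25.1 and 27.4 CPM in Ishikawa and 10.9, 11.5, 10.1 and 10.5 CPM in T-47D, and all 6 intervals against 0 h held 1. CDKN1B, encoding p27, stood at 36.9, 33.6, 30.9 and 34.5 CPM in Ishikawa and 15.2, 12.0, 13.0 and 12.8 CPM in T-47D. All 6 CDKN1B values under E2 were below the 0 h value of their line. The CDKN1B intervals against 0 h held 1 in Ishikawa at 2 and 8 h and in T-47D at 8 h. In T-47D the CDKN1B ratio was 0.788 at 2 h [0.682 to 0.908], 0.853 at 4 h [0.745 to 0.976] and 0.838 at 8 h [0.699 to 1.00]. In Ishikawa the lowest was 0.839 at 4 h [0.747 to 0.943]. The share of thinned T-47D cells with a CDKN1B UMI was 20.3% at 0 h [18.2 to 22.5], 13.9% at 2 h [11.9 to 16.1] and then 15.4% and 15.6%, and unthinned 27.2%, 21.5%, 23.5% and 24.4%.

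Although the pool level of CDKN1A in Ishikawa was nearly the same at 0 and 8 h, its spread between cells was not. The share of thinned cells with a CDKN1A UMI was 23.4%, 20.2%, 20.5% and 18.2% (unthinned 26.8%, 25.5%, 28.5% and 25.3%), while the mean number of UMIs in cells that had any was 1.59, 1.70, 1.57 and 1.95. The Fano factor was 1.83, 2.47, 2.04 and 3.35 in time order, and the 5% of cells with most CDKN1A held 41.8%, 49.4%, 46.5% and 55.6% of its UMIs. The cell with most had 6 UMIs among 676 thinned cells at 0 h and 14 among 1336 at 8 h. At 8 h only 4 cells had 10 or more CDKN1A UMIs, and the Fano factor is sensitive to so few cells. Among thinned cells the share with the transcript was lower at 8 h [16.2 to 20.4] than at 0 h [20.2 to 26.7], but these intervals just overlapped. The cells that held it at 8 h had more UMIs each on average. Whether the same would be seen in another culture was not tested.

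RB1 (ENSG00000139687, chromosome 13), the gene of the pocket protein that cyclin D kinases phosphorylate, was the lowest of the 10 genes but for CCND3 in Ishikawa at 0 h. It stood there at 16.1 CPM at 0 h, 11.4 CPM at 2 h, 12.8 CPM at 4 h and 14.7 CPM at 8 h. The 2 h ratio of 0.703 [0.595 to 0.832] was the lowest of any member compared in either line, at a log2 change of -0.47. In Ishikawa cells that lacked TOP2A and MKI67 UMIs (263 at 0 h, 477 at 2 h and 247 at 4 h) it passed the threshold downward at both 2 h (-0.63) and 4 h (-0.79), where 1.66% and 1.84% of all genes did so. T-47D RB1 stood at 34.5, 35.2, 35.0 and 40.4 CPM, and the 8 h ratio was 1.17 [1.05 to 1.30].

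**Figure D3:**
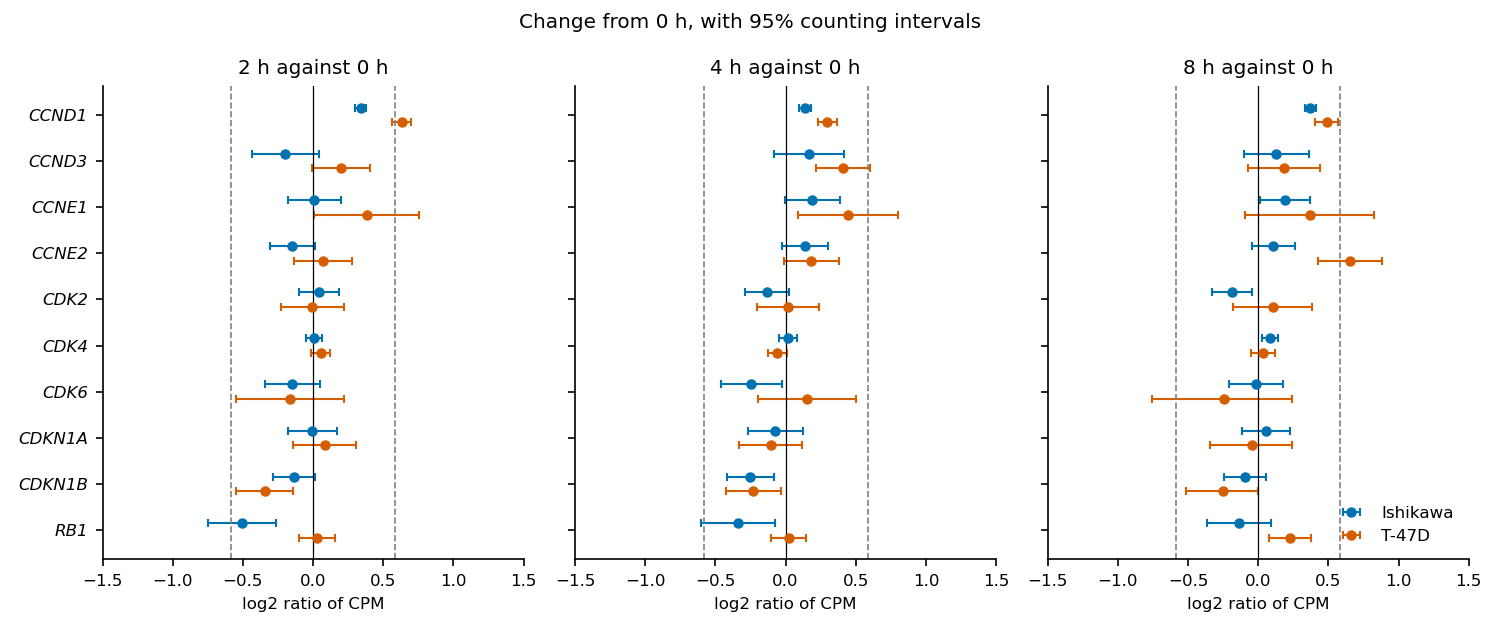
Log2 ratio of CPM to 0 h (horizontal axis) for each gene at 2, 4 and 8 h, in Ishikawa (blue) and T-47D (orange). Bars are exact 95% counting intervals and dashed lines mark 1.5-fold. CCND1 at 2 h and CCNE2 at 8 h, both in T-47D, are the points beyond a dashed line.

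Counted together, 0 of 10 members passed 1.5-fold at any time in Ishikawa. Over all 7885 genes compared there, 0.786% were called higher and 0.659% lower for 2 h. For 4 h these shares were 0.634% and 0.621%, and for 8 h 0.812% and 0.469%. In T-47D 8 of the 10 members were compared. At 2 h 1 of the 8, CCND1, was called higher, against 1.22% of all 7440 genes, and 0 lower against 0.417%. At 4 h 0 of 8 were called in either direction, against 1.33% higher and 0.363% lower. At 8 h 1 of 8, CCNE2, was called higher, against 2.34%, and 0 lower, against 0.726%. The median log2 change of the members compared lay between -0.07 and 0.13 over the 6 comparisons, and that of all genes between -0.01 and 0.01. The CCND1 values lay above the 95th percentile of all genes at 2 and 8 h in both lines, which in Ishikawa was 0.21 at 2 h and 0.29 at 8 h, and 0.26 and 0.39 for T-47D. The RB1 values of Ishikawa at 2 and 4 h lay below the 5th percentile, -0.30 and -0.31.

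For each of the 10 genes but CCND3, the lines at 0 h were further apart than any E2 pool was from the 0 h pool of its line. On the log2(CPM + 1) scale 8 of the 10 genes differed between the lines by over 2-fold at 0 h, 7 of them lower in T-47D and 1 higher, where 22.4% of 8960 genes were lower and 15.5% higher. CCNE1 in T-47D was at 0.154 times its Ishikawa level [0.124 to 0.190], CDK6 at 0.192 [0.156 to 0.234], CCND1 at 0.217 [0.208 to 0.226] and CDK2 at 0.269 [0.235 to 0.306]. CCNE2 was at 0.381 times, CDKN1A at 0.411 and CDKN1B at 0.413. CDK4 sat at the threshold, with a ratio of CPM of 0.499 [0.476 to 0.522], just past 2-fold, and a log2 ratio of -0.998 on the log2(CPM + 1) scale, just short of it. RB1 went the other way, at 2.14 times its Ishikawa level [1.86 to 2.46]. CCND3 was close to even at 0.836 [0.709 to 0.987].

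These ratios depend on the scaling between the libraries. With trimmed mean of M-values (TMM) factors in place of UMI totals every log2 ratio was 0.44 higher. Then 5 of 10 genes were past 2-fold, CCND3 turned from a log2 ratio of -0.24 to 0.20, and CCNE2, CDKN1A and CDKN1B came to 0.516, 0.556 and 0.559 times the Ishikawa level. RB1 alone moved further from even, to 2.89. Each line was 1 library, so line and library cannot be told apart. Between the time points of a line no scaling moved the log2 changes by more than 0.039.

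Because several of these genes are transcribed in part of the cell cycle only, cells were set out by 2 gene lists that held none of the 10 genes, namely 26 E2F target genes of the G1/S transition and 16 genes of G2 and mitosis. Within a line, the upper 25% of thinned cells by summed UMIs of the G2 and mitosis list were called high G2M, those in the upper 25% of the E2F target list but not of the other high S, and the rest low. These are ranges of a score and not cell types. In Ishikawa the cuts were at 27 and 18 UMIs, and 70 and 55 cells sat exactly on them. In T-47D they were at 8 and 5 UMIs, with 172 and 245 cells on them, and the high G2M class also had a median of 12 UMIs of the E2F target list against 10 in the high S class, so the classes were not separate in that line.

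In Ishikawa the order of the classes differed from gene to gene. High S cells, relative to low cells and over all times, had 2.65 times as much CCNE2 [2.38 to 2.94], 2.56 times as much CDK2, 1.93 times as much CCNE1 and 1.88 times as much CCND3. CDK4 was at 1.39 times. CCND1 and CDK6 were lower in high S cells, at 0.761 [0.737 to 0.787] and 0.737 times, and lower in high G2M cells, where CCND1 was at 0.746 times. The inhibitors were highest in high G2M cells, CDKN1A at 1.81 times [1.61 to 2.03] and CDKN1B at 1.33 times [1.19 to 1.48] the low class. CDK2 remained at 1.95 times there, while CCNE2 was at 1.07 times [0.942 to 1.21] and CCNE1 at 0.854 times [0.737 to 0.988]. RB1 did not differ from the low class beyond counting error in either.

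In T-47D CCNE2 was nearly restricted to cells high on a list. High G2M cells had 13.9 times the CCNE2 of low cells [11.4 to 17.2] and high S cells 5.42 times [4.10 to 7.17]. The 1538 cells high on either list, joined into 1 class after the overlap had been seen, were 36.9% of cells and held 87.1% of CCNE2 UMIs, at 33.6 CPM against 2.92 CPM in low cells. CCNE1 was at 3.81 and 2.35 times the low class, CDK2 at 2.98 and 1.45 times and RB1 at 1.66 and 1.18 times, in high G2M and high S cells respectively. CCND1 was again lower in high G2M cells, at 0.781 times [0.739 to 0.825], but in high S cells it was at 1.12 times the low class [1.05 to 1.20]. The lower CCND1 in high G2M cells was seen at all 4 times in both lines, with ratios of 0.714 to 0.856 and no interval that held 1.

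**Figure D4:**
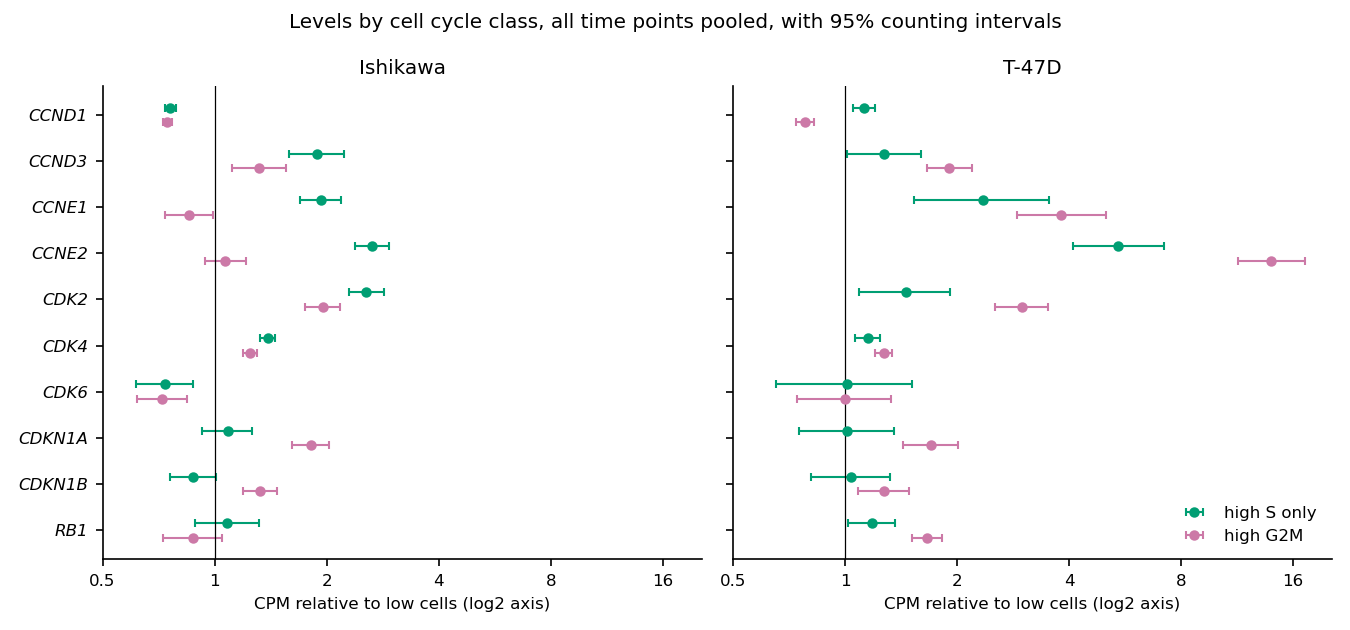
CPM of each gene in high S cells (green) and high G2M cells (pink) relative to low cells, on a log2 axis, with all times of a line pooled. Bars are exact 95% counting intervals. In Ishikawa CCNE2 and CDK2 are highest in high S cells, in T-47D CCNE2 reaches 13.9 times the low class in high G2M cells, and CCND1 lies below 1 in high G2M cells of both lines.

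The class shares moved with E2 time in T-47D. High G2M cells were 27.2%, 21.9%, 27.1% and 32.8% of cells at 0, 2, 4 and 8 h and low cells 63.2%, 68.8%, 61.0% and 55.7%. The median number of E2F target UMIs in high G2M cells was 8, 12, 15 and 23. CCNE2 within the class was at 37.9, 45.1, 35.2 and 51.1 CPM, and 24.6%, 29.1%, 28.8% and 38.2% of its cells had a CCNE2 UMI. In low cells CCNE2 stayed between 2.46 and 3.34 CPM, from 13 to 36 UMIs, and over the unthinned low cells its log2 change at 8 h was -0.06, where over all kept cells it was 0.62. Low cells were chosen for few UMIs of the E2F target list, whose genes were themselves higher at 8 h in this line. The value in low cells cannot be told apart from that choice. The parts of class frequency and of level within a class were not tested.

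The CDKN1A level in Ishikawa also differed between the classes, most at 8 h. Its spread within a class was not computed. In high G2M cells CDKN1A was at 29.1, 42.9, 34.3 and 49.5 CPM at 0, 2, 4 and 8 h, from 65, 207, 80 and 193 UMIs, and in low cells at 27.1, 21.5, 23.9 and 20.8 CPM. Its ratio between the classes was 1.08 at 0 h [0.785 to 1.46] and 2.38 at 8 h [1.94 to 2.91]. High G2M cells with a CDKN1A UMI were 21.9% of the class at 0 h and 24.1% at 8 h. Low cells with a CDKN1A UMI were 23.3% and 16.3% of theirs. How far the ratio came from the share of cells or from UMIs per cell was not tested.

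Across cells the 10 genes were only weakly related. Over the 45 pairs, 2 lines and 4 times, Spearman's rho of thinned UMIs lay between -0.149 and 0.251. The highest values were for CCNE1 with CCNE2 in T-47D, 0.245 at 4 h and 0.251 at 8 h, over 1231 and 519 cells. The lowest was for CCND1 with CDK2 in Ishikawa at 0 h. The pairs share cells and low counts, and these values are given as a description.

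Other genes of the pathway were read from lists. Of 26 E2F target genes, 22 were compared in T-47D. There 0 were called at 2 h, 0 at 4 h and 12 higher at 8 h, where 2.34% of all genes were. Their median log2 change was 0.09, 0.27 and 0.61 against 0.01, -0.01 and 0.01 for all genes. All 22 were above 0 at 4 and at 8 h, from 0.25 for RRM1 to 1.04 for MCM10 at 8 h. MCM10 stood at 10.6, 11.5, 16.1 and 23.0 CPM, CDC6, which loads the replicative helicase, at 11.0, 13.0, 15.9 and 22.4 CPM (0.96 at 8 h), and DTL at 9.46, 9.27, 13.9 and 20.4 CPM. In Ishikawa 0 of 25 were called at any time and the medians lay between -0.04 and -0.03, with MCM5 lowest (-0.27) and UNG highest (0.30) at 8 h. CCND1 in T-47D was thus highest at 2 h, while CCNE2 and the E2F targets were highest at 8 h.

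**Figure D5:**
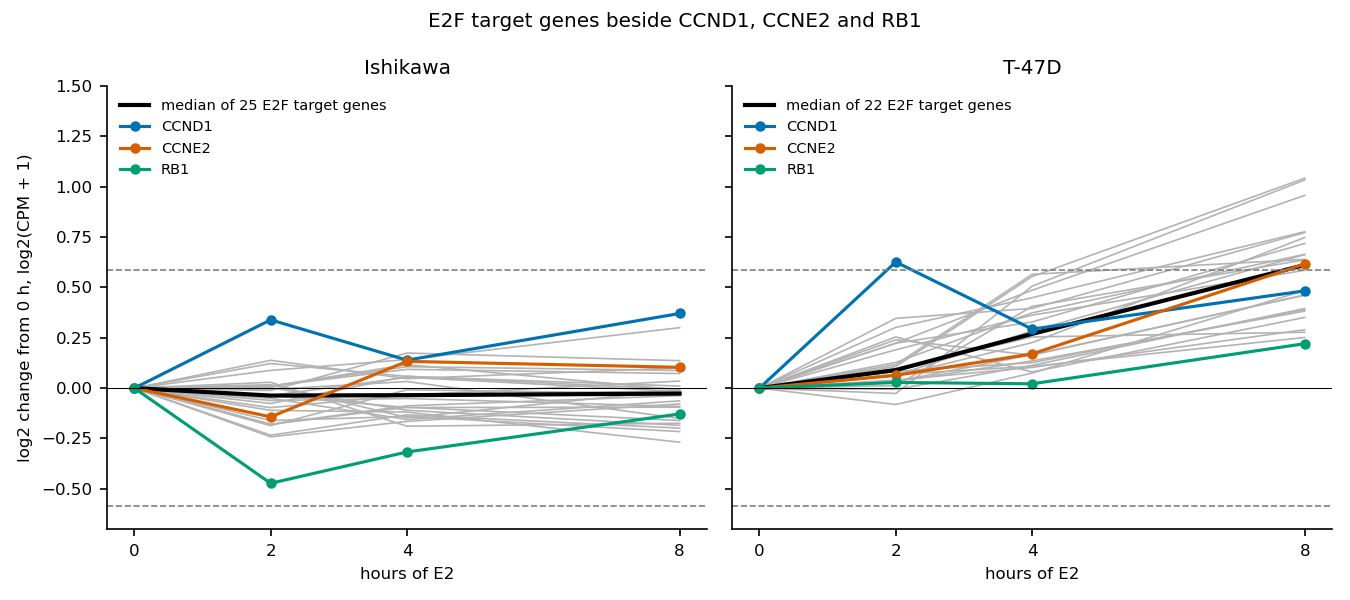
Log2 change from 0 h on the log2(CPM + 1) scale (vertical axis) against hours of E2, for each compared E2F target gene (grey), their median (black), CCND1 (blue), CCNE2 (orange) and RB1 (green). Dashed lines mark 1.5-fold. In T-47D the median reaches 0.61 at 8 h beside CCNE2 at 0.62, whereas CCND1 is highest at 2 h, and in Ishikawa the median stays near 0.

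Among pocket proteins, E2F and DP factors 2 of 9 compared in T-47D rose, both at 8 h, where 2.34% of all genes did. They were E2F1, itself an E2F target, from 15.2 to 29.1 CPM (log2 change 0.89) and the pocket protein gene RBL1 from 8.95 to 14.3 CPM (0.62). The lowest there was TFDP2 (-0.24). In Ishikawa 0 of 8 were called, and E2F7 (-0.20) and E2F6 (0.45) were the ends of the range at 8 h. Among the other INK4 and CIP/KIP inhibitors CDKN1C, encoding p57, fell in Ishikawa, at 20.8, 14.8, 12.8 and 11.2 CPM (-0.67 at 4 h and -0.84 at 8 h). It was 1 of 4 compared, where 0.621% and 0.469% of all genes were called lower at these times. CDKN2A, encoding p16 and ARF, stood at 311 to 317 CPM in Ishikawa and at 70.9, 70.9, 68.5 and 56.9 CPM in T-47D, and 0 of 4 were called in T-47D, where CDKN2D was highest at 8 h (0.21). CDKN2B, encoding p15, had values below 0 at all 3 times in both lines, the lowest -0.57 in Ishikawa at 2 h, and was not called.

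Of the other cyclins, CDKs and CDK activators, CCND2 was the only 1 of 11 called in Ishikawa. It was higher at 4 and 8 h, where 0.634% and 0.812% of all genes were. In T-47D 0 of 8 were called, and CDK1 had the highest value at 8 h, 0.36, and CDK7 the lowest, -0.26. CDC25B was lowest in Ishikawa (-0.38). Of the genes for turnover of cyclins and CDK inhibitors, such as SKP2, which targets p27, and FBXW7, which targets cyclin E, 0 of 11 were called in either line, with all values between -0.25 and 0.33. At 8 h CUL4B was lowest and FBXW7 highest in both lines (-0.09 and 0.24 in Ishikawa, -0.16 and 0.19 for T-47D). Of the G2 and mitosis genes 0 of 16 in Ishikawa and 0 of 14 in T-47D were called. All 16 were below 0 in Ishikawa at 4 and at 8 h, with medians of -0.29 and -0.34, from CENPE (-0.48) to CCNB1 (-0.16) at 8 h, and in T-47D the median was 0.15 at 8 h, from CCNB1 (-0.23) to HMMR (0.34).

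For the 2 members past 1.5-fold in any comparison, the genes with the most similar course were sought by Euclidean distance over the 6 log2 changes among 6404 genes compared in both lines. The nearest to CCND1 were SLC25A36, a mitochondrial pyrimidine nucleotide carrier (distance 0.259), PUS1, a pseudouridine synthase (0.283), and COA7 (0.302). The SLC25A36 changes were 0.45, 0.25 and 0.26 in Ishikawa, then 0.65, 0.46 and 0.44 for T-47D. The nearest to CCNE2 were DDX31 (0.211), CMSS1 (0.215) and RFC3, a subunit of the replication clamp loader (0.222). The RFC3 changes were -0.05, 0.15 and -0.03 in Ishikawa, then 0.13, 0.16 and 0.48 for T-47D.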

How the data were processed

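Droplet scRNA-seq counts (10x Genomics 3′ v3.1) were deposited by the authors as 1 gene by cell table of UMI counts per line, made with Cell Ranger 3.1.0 against hg38 according to the submitters' processing notes. A deposited table gave each barcode's MULTI-seq call. Of 14985 Ishikawa barcodes 9077 carried the tag of a single time point, 1906 a doublet call and 4002 none, and of 18188 T-47D barcodes 4626, 1442 and 12120. Doublet calls and uncalled barcodes were left out and no other doublet caller was run. The study's cell limits were then applied: 8500 to 35000 UMIs, 2700 to 6000 genes and at most 7% mitochondrial UMIs in Ishikawa, which left 4613 cells, and 7500 to 40000 UMIs, 1500 to 6000 genes and at most 20% in T-47D, which left all 4626. The tag count tables behind the calls were not used here.

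UMI counts were summed per line and time point and divided by the pool's total. Changes used a pseudocount of 1 CPM, a minimum mean of 10 CPM across a line's pools, and a fold of 1.5 (2 between lines). GFP and tdTomato were not among the genes compared. With 1 culture per line and time point no test was run and no p-value is given. Intervals are exact (Poisson for CPM, Clopper-Pearson for shares, conditional binomial for ratios). Cells were thinned without replacement to the 10th percentile of UMIs of kept cells in their line. TMM factors came from edgeR 4.0.16 (R 4.3.3), and everything else was computed with Python 3.11.15, NumPy 2.4.6, SciPy 1.17.1 and pandas 2.3.3. The fold rule, the intervals and the thinning were tested on simulated data.

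The members and gene lists were chosen with earlier results of these data known. Genes outside the set were named where they were the lowest or highest of their list at 8 h in a line or among the 3 nearest to a called member. CCND2, CDC6, DTL, RBL1, CDKN2B and SKP2 were added after their values were seen, as was the account of CDKN1A spread. A further gene list is not reported here. Alternatives covered scaling, pseudocount, minimum level, fold, cell limits, weighting of cells, thinning and subsets of cells.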

Additional observations from a re-analysis of the deposited data

How the results depend on the processing

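With 1 culture at each line and time point, no replicate could be left out, and all intervals cover counting error only. No paired analysis was possible because no line and time point had a second labelled culture. The number of members past the threshold in Ishikawa was 2 at 2 h with the smaller fold tried (CCND1 higher and RB1 lower, where 2.40% of all genes were higher and 4.10% lower) and 1 at 8 h (CCND1, 3.89% higher). It was 1 at 2 h and 1 at 4 h in cells lacking TOP2A and MKI67 UMIs (RB1, 1.66% and 1.84% lower), against 0. In T-47D it was 0 at 2 h with a fold of 2, in cells lacking TOP2A and MKI67 UMIs, and in cells low on both cell cycle lists, against 1. It was 1 at 4 h with the smaller fold tried (CCND3, 4.49% higher), against 0. At 8 h it was 0 with a pseudocount of 5 CPM, a minimum of 50 CPM, a fold of 2, in cells lacking TOP2A and MKI67 UMIs, and in cells low on both lists, and 2 with the smaller fold tried (CCND1 and CCNE2, 7.11% higher), against 1. Between the lines TMM factors gave 5, median-of-ratios factors gave 5 and a minimum of 50 CPM gave 1, against 8. In cells low on both lists the log2 change of CCNE2 in T-47D at 8 h was -0.058 and so reversed. Of 690 recomputed log2 changes of members, 648 stayed within counting error of the reported value and 41 moved without reversing a called value. A reversal was counted only for called values. In T-47D every called cell had been kept, so using every called cell repeats the reported values by construction. Small changes did not all keep their sign across alternatives, as with CDKN1A in Ishikawa at 8 h (-0.33 to 0.25). CCND1 kept a value above 0 in all 6 comparisons and all alternatives run, between 0.54 and 0.66 in T-47D at 2 h and between 0.20 and 0.39 in Ishikawa at 2 h. The cause of these moves was not tested, except that a stricter fold or minimum and smaller subsets of cells leave fewer genes or UMIs by construction. CCNE1 and CDK6 in T-47D, with 46 to 147 UMIs a pool, are limited by depth.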
